A study of Mus musculus with 12 samples.

Results

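The genes described here are 10 regulators of the passage from G1 into S phase of the cell cycle: the D-type cyclins Ccnd1, Ccnd2 and Ccnd3, the E-type cyclins Ccne1 and Ccne2, the transcription factors E2f1, E2f2 and Myc, the cyclin-dependent kinase inhibitor Cdkn1b (p27) and the retinoblastoma gene Rb1. They were chosen by symbol, and each matched 1 of the 27487 gene rows of the table. Polyadenylated RNA was sequenced from mouse BV2 cells, a line of microglia immortalised with a retrovirus that carries v-raf and v-myc. In the Neu+NETS group, BV2 cells shared a culture with primary mouse neutrophils that had been treated with PMA (phorbol 12-myristate 13-acetate), a phorbol ester that makes neutrophils release extracellular traps of chromatin and granule proteins (NETs). In the Neu group the primary neutrophils had received no such treatment, and in the CTR group BV2 cells were kept without neutrophils. Each group had 4 libraries. BV2 is 1 immortalised line that divides in culture, so all 12 libraries carry the same transforming genes, and reads from v-myc were not analysed here. The sources used here do not say how neutrophils were kept apart from or removed from the BV2 cells, how long the cultures lasted or whether PMA was washed out. A neutrophil-free culture with PMA alone was not analysed here, so PMA and NETs cannot be told apart in the Neu+NETS group.

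In G1, mitogens and Myc raise the D-type cyclins, which activate the kinases Cdk4 and Cdk6. These kinases phosphorylate the retinoblastoma protein, which otherwise holds E2F factors inactive. Released E2F switches on the E-type cyclins, E2F genes themselves and the genes of DNA replication, and cyclin E with Cdk2 phosphorylates the retinoblastoma protein further. Cdkn1b binds and blocks the cyclin E and Cdk2 complex, and its loss or dilution lets cells enter S phase. Macrophages, the family to which microglia belong, divide in response to growth factors and stop in G1 when bacterial products activate them.

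The libraries held 53512190 to 68316549 estimated counts. Pearson's r of log2 values over genes lay between 0.977 and 0.988 for the 18 pairs of libraries within a group and between 0.948 and 0.968 for the 48 pairs across groups, as a description across genes that are not independent. The labels do not say whether the 4 libraries of a group are 4 cultures or 1, and a p-value given here weighs only how these libraries vary, technically or otherwise. The labels give the tissue as retina and the cell line as BV2. All 11 microglia and macrophage markers were in the table, with a summed level of 771 to 784 FPKM (a level per transcript length and per library size) in Neu+NETS, 1140 to 1192 in Neu and 1162 to 1228 in CTR libraries, although Aif1 was under 1 FPKM in Neu+NETS. Cd68 was the largest part of the sum, at 351, 378 and 419 FPKM in Neu+NETS, Neu and CTR. All 11 averaged lower in Neu+NETS than in CTR, among them Csf1r (26.7 and 91.3 FPKM) and Mertk (1.13 and 5.25). In Neu, Itgam, Aif1, Ptprc and Fcer1g averaged higher than in CTR and the rest lower. Of 7 retinal neuron and glia markers in the table, 6 were under 1 FPKM in every group, and the other, Glul, is also expressed outside the retina. The 11 neutrophil markers in the table summed to 0.848 to 1.12 FPKM in Neu+NETS, 13.5 to 14.4 FPKM in Neu and 5.52 to 6.91 FPKM in CTR libraries. In Neu libraries 8 of these 11, among them S100a8, Mpo and Elane, were under 1 FPKM, and Mpo, Elane, Camp, Ngp and Mmp8 were listed at 0 in all Neu+NETS libraries. The marker that led in Neu libraries was Il1r2, at 8.03 FPKM, and in CTR libraries, which had no neutrophils, it was Csf3r, at 5.15 FPKM.

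Genes were compared with edgeR's quasi-likelihood test in 1 fit of all 12 libraries, with p-values adjusted by Benjamini-Hochberg over the 16387 genes tested, and a gene was called when its adjusted p was under 0.05. All 10 members passed the filter on low counts. Fold changes are log2 values with a standard error (SE), and levels are in FPKM, which is scaled to transcript length and so allows levels of different genes to be set side by side. The 3 comparisons share libraries in pairs, so their results are not independent of each other. Limma on log2(FPKM + 1), run on 12540 genes with a mean of at least 0.5 FPKM, gave another split of higher against lower calls. For Neu+NETS against CTR it called 4099 higher and 2945 lower, where edgeR called 3535 and 3885. For Neu+NETS against Neu it called 5478 higher and 3770 lower, where edgeR called 4819 and 5422. For Neu against CTR it called 3327 higher and 5114 lower, where edgeR called 4284 and 4578. The median log2 change of all genes between Neu+NETS and Neu was -0.05 with edgeR and 0.09 with limma on log2(FPKM + 1), a shift that is small beside the changes of Ccne1, Ccne2, E2f1, Cdkn1b, Rb1 and Myc in that comparison. For Neu against CTR that median was 0.02 with edgeR, -0.07 with limma on log2(FPKM + 1) and -0.09 with limma on log2(FPKM + 0.1). The latter scale gave 0.12 for Neu+NETS against Neu. In Neu against CTR the shift is not small beside the edgeR changes of Ccnd1 (-0.15) and Ccnd2 (-0.05).

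In Neu+NETS libraries the members ran, from highest to lowest mean FPKM, Ccnd1, Ccne1, E2f1, Ccnd2, Ccne2, Ccnd3, E2f2, Rb1, Cdkn1b and Myc. The ranges of the 4 libraries overlapped between Ccne2 and Ccnd3 and between Rb1 and Cdkn1b, and all other neighbours stood apart. In Neu libraries the order was Ccnd1, E2f1, Ccnd3, Ccnd2, Ccne1, Cdkn1b, Rb1, E2f2, Ccne2 and Myc, with overlaps among E2f1, Ccnd3 and Ccnd2 and between Ccne1 and Cdkn1b. In CTR libraries the order was Ccnd1, E2f1, Ccne1, Ccnd2, Ccnd3, E2f2, Ccne2, Rb1, Cdkn1b and Myc, and no neighbours overlapped. Ccnd1 was thus the most abundant member and Myc the least abundant in each group. By mean FPKM, Cdkn1b stood above Rb1, E2f2 and Ccne2 in Neu libraries and below all 3 of them in Neu+NETS and CTR libraries. In Neu+NETS its range overlapped that of Rb1.

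**Figure D1:**
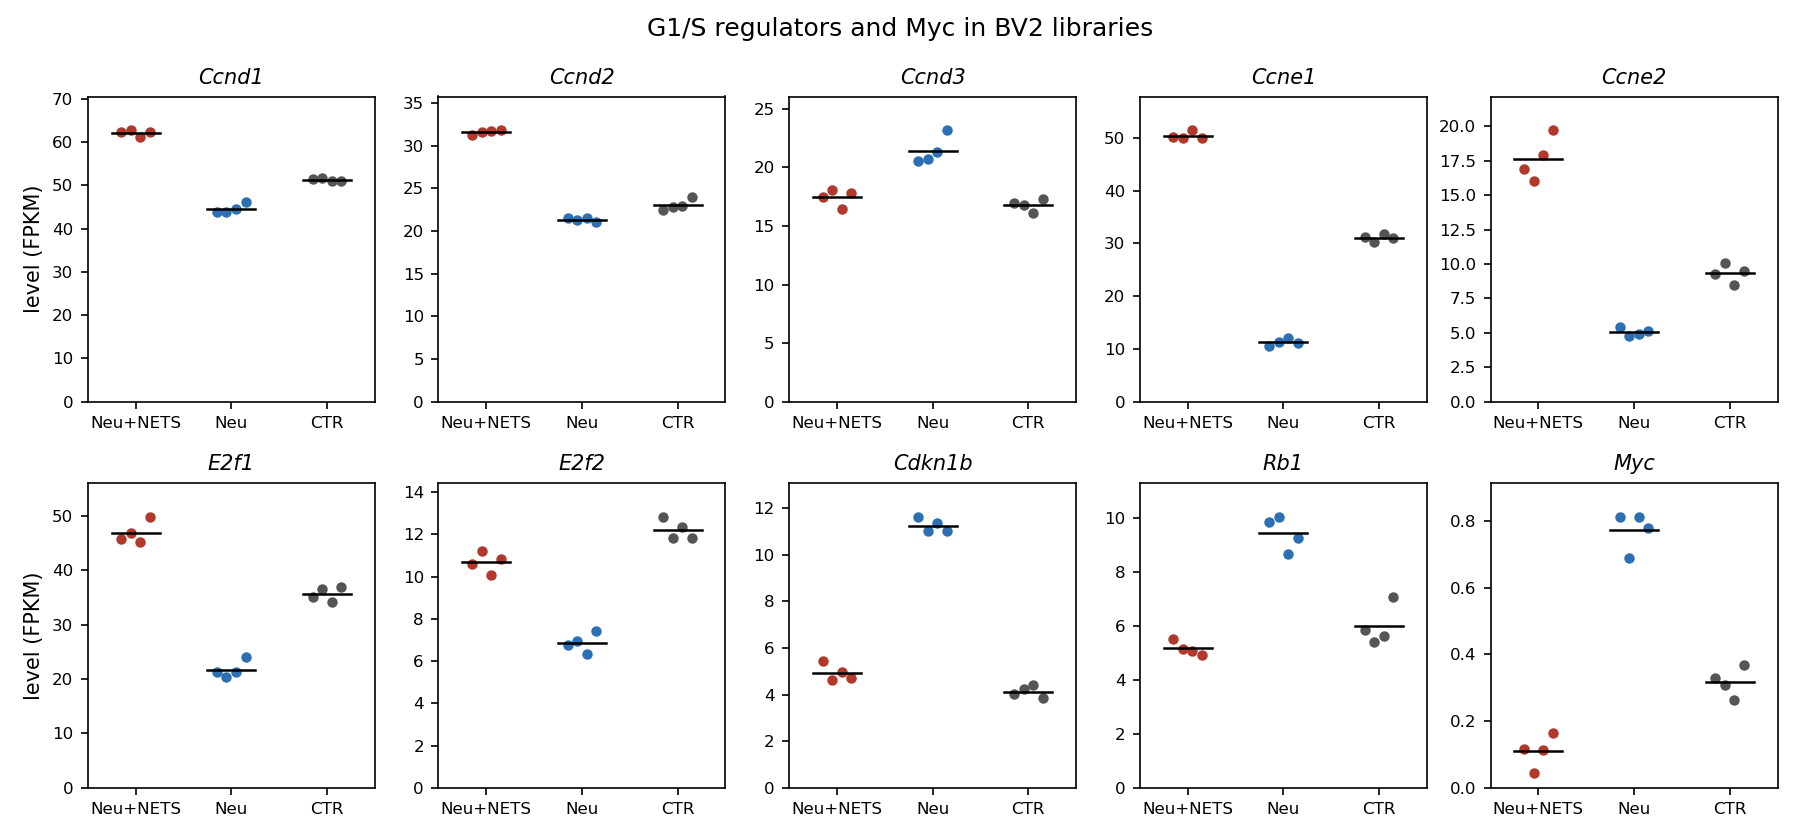
Levels of the 10 members in each library, in FPKM on an axis that starts at 0 in each gene's panel, with Neu+NETS, Neu and CTR libraries from left to right (n = 4 each); each point is 1 library and each line is the group mean. Ccne1 sits near 50.4 FPKM in Neu+NETS, 11.3 in Neu and 31.1 in CTR libraries, and Cdkn1b runs the other way, at 4.93, 11.2 and 4.13 FPKM.

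Of the 10 members, 6 were higher and 3 lower in Neu+NETS than in CTR, and 1 was not called, beside calls for 45.3% of all genes (21.6% higher, 23.7% lower). In Neu against CTR, 4 members were higher, 5 were lower and 1 was not called, beside calls for 54.1% of all genes (26.1% higher, 27.9% lower). In Neu+NETS against Neu, 6 members were higher and 4 lower, beside calls for 62.5% of all genes (29.4% higher, 33.1% lower). The median log2 change of the 10 members was 0.22 in Neu+NETS against CTR, -0.10 in Neu against CTR and 0.42 in Neu+NETS against Neu, beside 0.00, 0.02 and -0.05 over all genes. The FPKM ranges of the groups stood apart for 8 members in Neu+NETS against CTR, where 42.2% of all genes did. They stood apart for all 10 members in Neu against CTR, where 51.6% of all genes did, and for all 10 in Neu+NETS against Neu, where 59.6% did. The members' 9, 9 and 10 calls stand beside these shares of all genes as a description, since the members were not chosen at random. In bulk RNA, fewer cells in a phase of the cycle and less RNA per cell cannot be told apart.

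**Figure D2:**
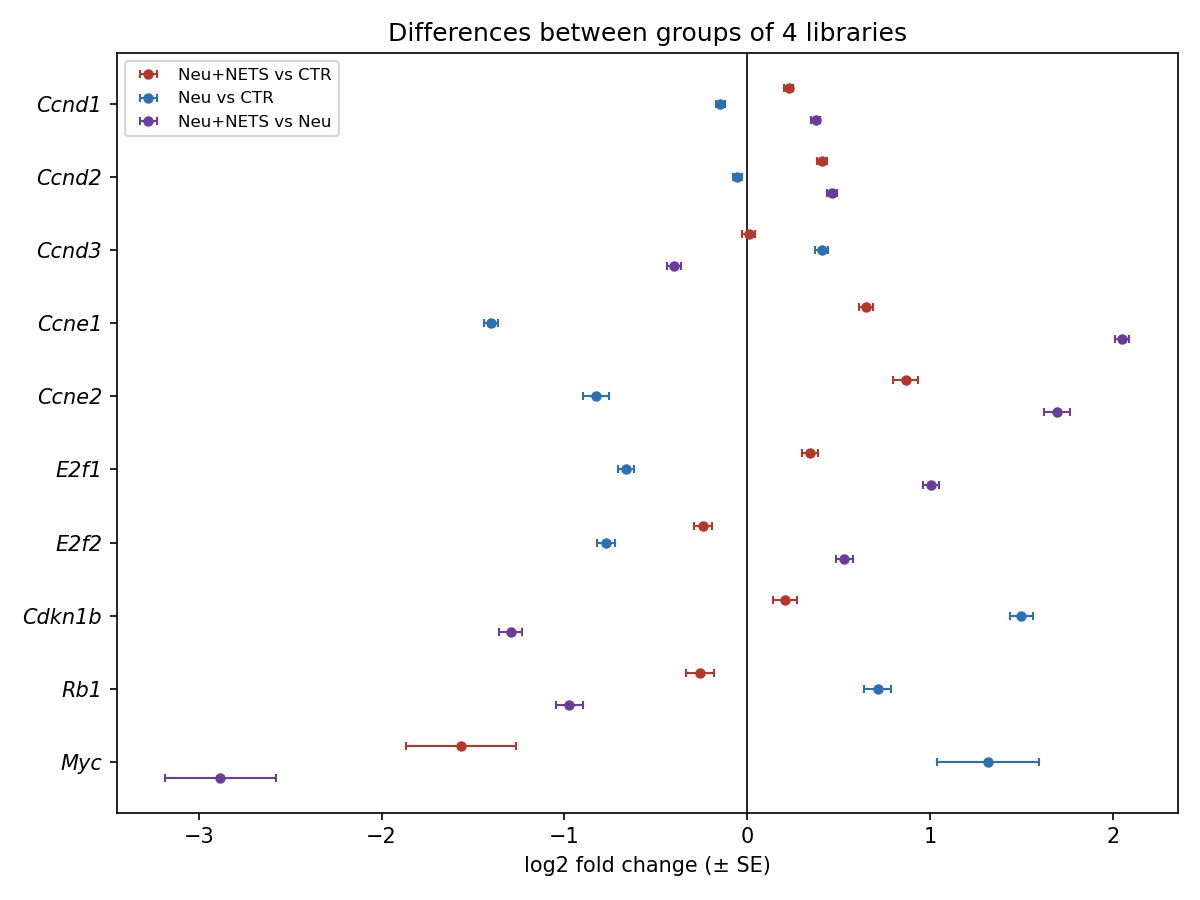
Log2 fold changes of the 10 members (x axis) by gene (y axis) in Neu+NETS against CTR, Neu against CTR and Neu+NETS against Neu; points are edgeR estimates from 4 libraries a group and bars are ± SE. Ccne1 reaches 2.05 in Neu+NETS against Neu and Myc reaches -2.88, the ends of the plotted range.

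Myc encodes a transcription factor that drives growth and G1 entry in many cell types. Its gene (ENSMUSG00000022346) spans 61857240 to 61862199 on the plus strand of chromosome 15 in build GRCm39, as do all coordinates of genes given here. Myc had 0.118, 0.0453, 0.114 and 0.165 FPKM in Neu+NETS libraries, 0.813, 0.689, 0.813 and 0.778 FPKM in Neu libraries and 0.331, 0.309, 0.265 and 0.368 FPKM in CTR libraries. All 4 Neu+NETS libraries lay below every CTR library and all 4 Neu libraries above, and no groups overlapped. These levels rest on few reads: 23, 8, 23 and 29 estimated counts in Neu+NETS, 154, 135, 157 and 149 in Neu and 56, 59, 44 and 59 in CTR. A sequenced fragment appears to stand for about 4 of these units, as inferred from low values over all genes. On that reckoning the second Neu+NETS library, at 8 units, was under the 12 units (3 fragments) taken as the limit of detection. Myc was lower in Neu+NETS than in CTR, with a log2 change of -1.57 ± 0.30 (SE, edgeR adjusted p = 0.000387), and higher in Neu than in CTR, at 1.32 ± 0.28 (edgeR adjusted p = 0.000697). Between Neu+NETS and Neu the log2 change was -2.88 ± 0.30 (edgeR adjusted p = 2.51e-07), a level 7.37 times lower in Neu+NETS. Leaving out single libraries moved the Neu+NETS against CTR change between -1.82 and -1.30. On the log2(FPKM + 1) scale without a filter, which compresses genes this low, limma gave -0.25, 0.43 and -0.68 for the 3 comparisons.

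Ccnd1 encodes cyclin D1, the D-type cyclin most closely tied to mitogen signals. Its gene (ENSMUSG00000070348; chromosome 7, 144483668 to 144493662, minus strand) had 62.4, 62.7, 61.3 and 62.3 FPKM in Neu+NETS libraries, 43.9, 43.9, 44.5 and 46.3 in Neu libraries and 51.6, 51.8, 51.0 and 51.1 in CTR libraries. The 3 groups stood apart with Neu+NETS highest and Neu lowest. The log2 change was 0.23 ± 0.023 in Neu+NETS against CTR (SE, edgeR adjusted p = 5.03e-07), -0.15 ± 0.023 in Neu against CTR (edgeR adjusted p = 4.19e-05) and 0.37 ± 0.023 in Neu+NETS against Neu (edgeR adjusted p = 2.94e-10). These were among the smallest changes called among the members, and the spread within a group was small beside them, with an SD of 0.609, 1.14 and 0.381 FPKM in Neu+NETS, Neu and CTR. The choice of setting moved them more. Over the settings tried, the Neu against CTR change ran from -0.20 to -0.10, a range that is not small beside the change. For Neu+NETS it ran from 0.22 to 0.27 against CTR and from 0.33 to 0.48 against Neu.

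Ccnd2 encodes cyclin D2 (ENSMUSG00000000184; chromosome 6, 127102125 to 127129156, minus strand). It had 31.3, 31.6, 31.7 and 31.8 FPKM in Neu+NETS libraries, 21.6, 21.3, 21.5 and 21.0 in Neu libraries and 22.5, 22.8, 22.9 and 23.9 in CTR libraries. The Neu+NETS libraries stood well above the others, while Neu and CTR were close, though their FPKM ranges did not overlap. The log2 change was 0.41 ± 0.026 in Neu+NETS against CTR (SE, edgeR adjusted p = 1.21e-09) and 0.46 ± 0.026 in Neu+NETS against Neu (edgeR adjusted p = 6.59e-11). In Neu against CTR it was -0.05 ± 0.026 and was not called (edgeR adjusted p = 0.0908), with a 95% interval of -0.11 to 0.00083, and limma on log2(FPKM + 1) gave -0.11 and called it (adjusted p = 0.00212).

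Ccnd3, cyclin D3 (ENSMUSG00000034165; chromosome 17, 47815976 to 47910614, plus strand), moved in another pattern. It had 17.4, 18.1, 16.5 and 17.8 FPKM in Neu+NETS libraries, 20.5, 20.7, 21.3 and 23.2 in Neu libraries and 17.0, 16.8, 16.1 and 17.3 in CTR libraries. All Neu libraries lay above all others, and the Neu+NETS and CTR ranges overlapped. Ccnd3 was higher in Neu than in CTR by a log2 change of 0.41 ± 0.037 (SE, edgeR adjusted p = 5.13e-08) and lower in Neu+NETS than in Neu, at -0.40 ± 0.037 (edgeR adjusted p = 4.2e-08). Between Neu+NETS and CTR it was 0.0074 ± 0.037 (edgeR adjusted p = 0.896), with a 95% interval of -0.07 to 0.09. The interval bounds any difference but does not show the levels to be equal, and the sign of this small value turned when the second Neu+NETS library (-0.0065) or the third CTR library (-0.010) was left out.

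The 3 D-type cyclins summed to 111 ± 1.27 FPKM in Neu+NETS, 87.4 ± 2.14 in Neu and 91.2 ± 0.981 in CTR libraries (SD, n = 4 each). Single libraries ran from 109.5 to 112.5 FPKM in Neu+NETS, 85.8 to 90.4 in Neu and 90.0 to 92.3 in CTR, so the Neu+NETS sum stood above both others and the Neu and CTR ranges overlapped. Within the sum, Ccnd3 made up 15.7 ± 0.470% in Neu+NETS, 24.5 ± 0.767% in Neu and 18.4 ± 0.378% in CTR. Ccnd1 made up 55.9 ± 0.218% in Neu+NETS, 51.1 ± 0.0911% in Neu and 56.3 ± 0.652% in CTR, and Ccnd2 made up 28.4%, 24.4% and 25.2%. The D-type cyclin RNA of Neu libraries thus held a larger share of Ccnd3 than that of the other groups, at a similar sum to CTR.

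**Figure D3:**
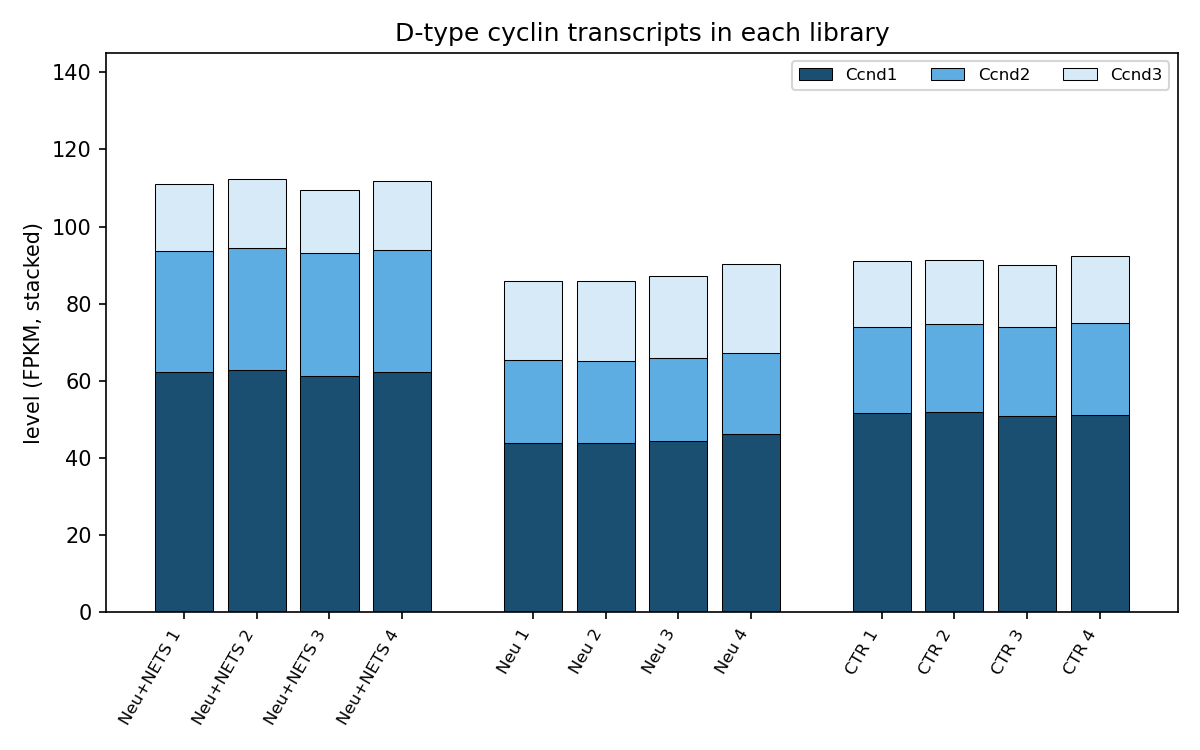
FPKM of Ccnd1, Ccnd2 and Ccnd3 in each library (y axis, from 0), stacked within a bar for each of the 4 Neu+NETS, Neu and CTR libraries. Bars sum to 109.5 to 112.5 FPKM in Neu+NETS, 85.8 to 90.4 in Neu and 90.0 to 92.3 in CTR libraries, and the Ccnd3 layer is thickest in the Neu libraries.

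Cdkn1b encodes p27, the inhibitor that holds cyclin E and Cdk2 inactive in resting cells. Its gene (ENSMUSG00000003031; chromosome 6, 134897364 to 134902476, plus strand) had 5.43, 4.62, 4.95 and 4.73 FPKM in Neu+NETS libraries, 11.6, 11.0, 11.4 and 11.0 in Neu libraries and 4.02, 4.23, 4.42 and 3.85 in CTR libraries. The Neu libraries stood far above the rest, and the Neu+NETS libraries stood above the CTR libraries by a narrow margin. Cdkn1b was 2.83 times higher in Neu than in CTR, a log2 change of 1.50 ± 0.064 (SE, edgeR adjusted p = 3.49e-12), and 2.45 times lower in Neu+NETS than in Neu, at -1.29 ± 0.063 (edgeR adjusted p = 1.01e-11). The Neu+NETS against CTR change was 0.21 ± 0.063 (edgeR adjusted p = 0.0133), and without the first Neu+NETS library it was 0.16 and no longer called (edgeR adjusted p = 0.051).

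Rb1 encodes the retinoblastoma protein (ENSMUSG00000022105; chromosome 14, 73421113 to 73563262, minus strand). It had 5.54, 5.16, 5.09 and 4.92 FPKM in Neu+NETS libraries, 9.86, 10.1, 8.67 and 9.25 in Neu libraries and 5.86, 5.40, 5.62 and 7.09 in CTR libraries. Neu libraries were highest, and the Neu+NETS and CTR ranges overlapped, with the fourth CTR library the highest of its group. Rb1 was higher in Neu than in CTR by a log2 change of 0.72 ± 0.074 (SE, edgeR adjusted p = 2.79e-07) and lower in Neu+NETS than in Neu, at -0.97 ± 0.074 (edgeR adjusted p = 3.83e-09). The Neu+NETS against CTR change was -0.26 ± 0.074 (edgeR adjusted p = 0.00901). Without the fourth CTR library this value was -0.17 and still called (edgeR adjusted p = 0.0334), and limma without a filter did not call it (-0.17, adjusted p = 0.113). Ccnd3, Cdkn1b, Rb1 and Myc were the members that were highest in Neu libraries. The summed neutrophil markers were also highest there, with Il1r2 the largest part of that sum, and single markers differed in direction. Il1r2 averaged 0.0425 FPKM in Neu+NETS, 8.03 in Neu and 0.320 in CTR libraries, Lcn2 0.0908, 0.950 and 0.223, and Prtn3 0.0462, 0.399 and 0.0645. S100a8 averaged 0.0547 FPKM in Neu+NETS, 0.189 in Neu and 0.257 in CTR libraries, Elane was listed at 0 in Neu+NETS and averaged 0.0969 and 0.0381 in Neu and CTR, and Csf3r averaged 0.691, 4.15 and 5.15. Between Neu and CTR, Mpo (0.0022 and 0.0096 FPKM), Camp (0.0046 and 0.011) and Mmp8 (0.126 and 0.185) averaged lower in Neu. Ngp (0.0163 and 0) and Cxcr2 (0.0419 and 0.0266) averaged higher in Neu. The part of these markers in the levels of the 4 members was not tested.

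E2f1 and E2f2 encode activating E2F factors, which bind the retinoblastoma protein and turn on replication genes once released. E2f1 (ENSMUSG00000027490; chromosome 2, 154401327 to 154411812, minus strand) had 45.7, 46.9, 45.1 and 49.8 FPKM in Neu+NETS libraries, 21.2, 20.3, 21.2 and 24.0 in Neu libraries and 35.1, 36.5, 34.2 and 37.0 in CTR libraries. The groups stood apart, with Neu+NETS highest and Neu lowest. E2f1 was higher in Neu+NETS than in CTR by a log2 change of 0.34 ± 0.043 (SE, edgeR adjusted p = 4.39e-06), lower in Neu than in CTR at -0.66 ± 0.043 (edgeR adjusted p = 9.12e-10) and 2.01 times higher in Neu+NETS than in Neu, at 1.01 ± 0.043 (edgeR adjusted p = 2.21e-12).

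E2f2 (ENSMUSG00000018983; chromosome 4, 135899705 to 135923368, plus strand) was also lowest in Neu libraries but differed from E2f1 between Neu+NETS and CTR. It had 10.6, 11.2, 10.1 and 10.8 FPKM in Neu+NETS libraries, 6.76, 6.97, 6.32 and 7.43 in Neu libraries and 12.8, 11.9, 12.3 and 11.8 in CTR libraries. The groups stood apart in the order CTR, Neu+NETS, Neu. The log2 change was -0.24 ± 0.048 in Neu+NETS against CTR (SE, edgeR adjusted p = 0.000469), -0.77 ± 0.048 in Neu against CTR (edgeR adjusted p = 4.7e-10) and 0.53 ± 0.048 in Neu+NETS against Neu (edgeR adjusted p = 3.66e-08). E2f1 was called higher and E2f2 called lower in Neu+NETS than in CTR, and the ratio of E2f1 to E2f2 FPKM was 4.39 ± 0.180 in Neu+NETS, 3.16 ± 0.186 in Neu and 2.93 ± 0.204 in CTR libraries (SD, n = 4 each). Their sum was 57.5 ± 2.38 FPKM in Neu+NETS, 28.6 ± 1.93 in Neu and 47.9 ± 0.978 in CTR.

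Ccne1 and Ccne2 encode cyclins E1 and E2, partners of Cdk2 at the entry to S phase and targets of E2F. Ccne1 (ENSMUSG00000002068; chromosome 7, 37797409 to 37806959, minus strand) had 50.3, 50.0, 51.4 and 50.0 FPKM in Neu+NETS libraries, 10.6, 11.3, 12.1 and 11.2 in Neu libraries and 31.2, 30.2, 31.8 and 31.0 in CTR libraries. The groups lay far apart, with gaps many times the spread within any of them. Ccne1 was 1.57 times higher in Neu+NETS than in CTR, a log2 change of 0.65 ± 0.037 (SE, edgeR adjusted p = 3.44e-10), and 2.64 times lower in Neu than in CTR, at -1.40 ± 0.039 (edgeR adjusted p = 2.28e-14). Between Neu+NETS and Neu it was 4.14 times higher in Neu+NETS, at 2.05 ± 0.039 (edgeR adjusted p = 8.06e-17).

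Ccne2 (ENSMUSG00000028212; chromosome 4, 11191351 to 11204682, plus strand) had 16.9, 16.0, 18.0 and 19.7 FPKM in Neu+NETS libraries, 5.44, 4.75, 4.89 and 5.14 in Neu libraries and 9.27, 10.1, 8.50 and 9.47 in CTR libraries. It followed the order of Ccne1, with no overlap between groups. The log2 change was 0.87 ± 0.068 in Neu+NETS against CTR (SE, edgeR adjusted p = 1.68e-08), -0.83 ± 0.070 in Neu against CTR (edgeR adjusted p = 2.13e-08) and 1.70 ± 0.070 in Neu+NETS against Neu (edgeR adjusted p = 1.19e-12). The E-type cyclins together summed to 68.1 ± 1.75 FPKM in Neu+NETS, 16.4 ± 0.414 in Neu and 40.4 ± 0.105 in CTR libraries (SD, n = 4 each). The ratio of Cdkn1b to Ccne1 FPKM, inhibitor RNA to the RNA of its cyclin, was 0.0978 ± 0.00699 in Neu+NETS, 0.997 ± 0.0664 in Neu and 0.133 ± 0.00779 in CTR, so the inhibitor RNA was close to the level of Ccne1 RNA in Neu libraries and far below it in the other groups.

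The stretches before the starts of Ccne1 and Cdkn1b are shown because these genes moved furthest in opposite directions among members at over 1 FPKM in any group. The sequences are from RefSeq on build GRCm38.p6, an older build than that of the table, and 5 of the 10 members matched an entry, with 7 windows of 250 bases before an annotated start. Ccnd1, Ccnd2, Ccne2, Rb1 and Myc had no match. For Ccne1 the 206 bases that lie before the start of the gene in GENCODE are given, followed by 2 stretches of 30 bases, each with a match to the short E2F core in capitals. The first of these reaches across that start, and the second lies within the gene. For Cdkn1b the whole window of 250 bases is given, with no capitals because it held no match.
Ccne1, chr7:38107535-38107740, minus strand: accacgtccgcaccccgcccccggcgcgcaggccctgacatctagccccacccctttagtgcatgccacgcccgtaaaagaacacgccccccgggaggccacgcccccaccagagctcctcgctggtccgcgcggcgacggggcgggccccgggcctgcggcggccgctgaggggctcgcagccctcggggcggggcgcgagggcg
Ccne1, chr7:38107517-38107546, minus strand: ggcgcgaggGCGGGAcggggccggtgccgc
Ccne1, chr7:38107491-38107520, minus strand: ccgcgcgctgggatttttaaatgTCCCGCt
Cdkn1b, chr6:134920151-134920400, plus strand: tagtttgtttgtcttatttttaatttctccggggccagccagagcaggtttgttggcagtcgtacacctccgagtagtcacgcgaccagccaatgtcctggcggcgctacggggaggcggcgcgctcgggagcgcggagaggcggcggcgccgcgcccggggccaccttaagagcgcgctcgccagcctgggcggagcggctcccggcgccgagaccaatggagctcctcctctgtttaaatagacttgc

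The windows were searched on both strands for the E2F motif TTTNNCGC, the E-box CACGTG that Myc and its partners bind, and the shorter E2F core TCCCGC, the last added after the first 2 gave no match. None of the 7 windows held TTTNNCGC or CACGTG, which 4.28% and 6.02% of all 32851 windows of that length held. The core TCCCGC was found in 16.9% of all windows and, among the members, in the Ccne1 window alone, once on each strand. A match is a description of letters, and 3 of the 7 windows, those of E2f1, of a second start of Ccnd3 and of a second start of E2f2, lie within the gene by GENCODE.

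The other genes of the pathway were taken from 4 lists: partners in G1/S control, E2F target genes, partners and antagonists of Myc, and Myc target genes. Cdc25a and Cdk4 stand in both the first and the last. Over all genes tested, 21.6% were higher and 23.7% lower in Neu+NETS than in CTR, 26.1% and 27.9% in Neu than in CTR, and 29.4% and 33.1% in Neu+NETS than in Neu, and the counts of each list stand beside these shares. In the list of G1/S partners, 28 of 30 genes were tested, and Ccna1 and E2f7 were not analysed here. Set against CTR, in Neu+NETS 12 were higher, 7 lower and 9 not called, with a median log2 change of 0.09 (0.08 to 0.14 over the settings tried). In Neu against CTR 8 were higher, 16 lower and 4 not called (Cdk7 at -0.03, Cdkn2a at 0.03, E2f5 at -0.14 and Tfdp2 at 0.05), with a median of -0.27 (-0.43 to -0.22). Set against Neu, in Neu+NETS 16 were higher, 7 lower and 5 not called (Cdk4 at -0.05, Cdk7 at 0.11, Mnat1 at -0.13, Cdkn2b at 0.18 and Cdkn2c at -0.14), with a median of 0.36 (0.31 to 0.58). The genes named here as not called were picked after their values were seen.

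Cdkn1a, which encodes the Cdk inhibitor p21, had the smallest adjusted p of this list in each comparison. It averaged 24.2 ± 1.36 FPKM in Neu+NETS, 109 ± 2.47 in Neu and 15.1 ± 0.796 in CTR libraries (SD, n = 4 each). It was 7.50 times higher in Neu than in CTR, a log2 change of 2.91 ± 0.046 (SE, edgeR adjusted p = 2.64e-17), and 4.83 times lower in Neu+NETS than in Neu, at -2.27 ± 0.045 (edgeR adjusted p = 1.1e-16). It was also higher in Neu+NETS than in CTR, at 0.63 ± 0.044 (edgeR adjusted p = 4.3e-09). Cdkn1a and Cdkn1b thus had the same order of groups, Neu, Neu+NETS and CTR from high to low. Tfdp1, the partner with which E2F factors bind DNA, fell in Neu against CTR by 1.06 ± 0.032 and was higher in Neu+NETS than in Neu at 1.11 ± 0.032 (edgeR adjusted p = 6.76e-14 and 1.21e-14). Cdc25a, the phosphatase that activates Cdk2, moved likewise, at -1.54 ± 0.050 in Neu against CTR and 1.67 ± 0.050 in Neu+NETS against Neu (edgeR adjusted p = 1.27e-13 and 1.69e-14). Skp2, the ligase subunit that marks p27 for destruction, was at -1.16 ± 0.041 in Neu against CTR, and the repressor E2f8 was at 1.37 ± 0.047 in Neu+NETS against Neu (edgeR adjusted p = 4.29e-13 and 1.03e-13). In Neu+NETS against CTR the inhibitor Cdkn2b was higher at 1.03 ± 0.11, and the inhibitor Cdkn2c and cyclin A2, Ccna2, were lower at -0.61 ± 0.078 and -0.31 ± 0.027 (edgeR adjusted p = 9.51e-07, 5.84e-06 and 5.4e-08).

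Of the 35 E2F target genes, mostly genes of DNA replication and nucleotide synthesis, all 35 were lower in Neu than in CTR, with a median log2 change of -0.93 and a range of -1.81 to -0.25. All 35 were higher in Neu+NETS than in Neu, with a median of 1.15 and a range of 0.16 to 2.33, though 34 of them were called under the setting with the fewest calls. Against CTR, Neu+NETS libraries had 15 higher, 6 lower and 14 not called, with a median of 0.09 (0.07 to 0.14 over the settings tried). The medians over all genes were -0.05 for Neu+NETS against Neu and 0.02 for Neu against CTR. The list was compiled with earlier results of these libraries known, so its direction is not independent evidence.

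Cdc6, which loads the replicative helicase, averaged 21.1 ± 0.674 FPKM in Neu+NETS, 3.91 ± 0.256 in Neu and 14.3 ± 0.279 in CTR libraries, and was 5.02 times higher in Neu+NETS than in Neu, a log2 change of 2.33 ± 0.042 (edgeR adjusted p = 3.85e-17). Rrm2, a subunit of ribonucleotide reductase, averaged 72.5 ± 1.21 FPKM in Neu+NETS, 15.3 ± 0.359 in Neu and 42.6 ± 1.76 in CTR, and was 4.40 times higher in Neu+NETS than in Neu, at 2.14 ± 0.036 (edgeR adjusted p = 2.24e-17). Both had the order of groups seen in Ccne1, Ccne2, E2f1 and Ccnd1. Mcm2, Mcm3 and Mcm6, subunits of the helicase, were lower in Neu than in CTR by log2 changes of -1.66, -1.32 and -1.04, and Mcm2 and Mcm3 were higher in Neu+NETS than in Neu at 1.65 and 1.38. Between Neu+NETS and CTR the members of the list went separate ways: Rrm2 at 0.72 ± 0.035 and Cdc6 at 0.51 ± 0.039 were higher, and the thymidine kinase gene Tk1 was lower at -0.66 ± 0.050 (edgeR adjusted p = 3.55e-11, 1.23e-08 and 1.05e-08).

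**Figure D4:**
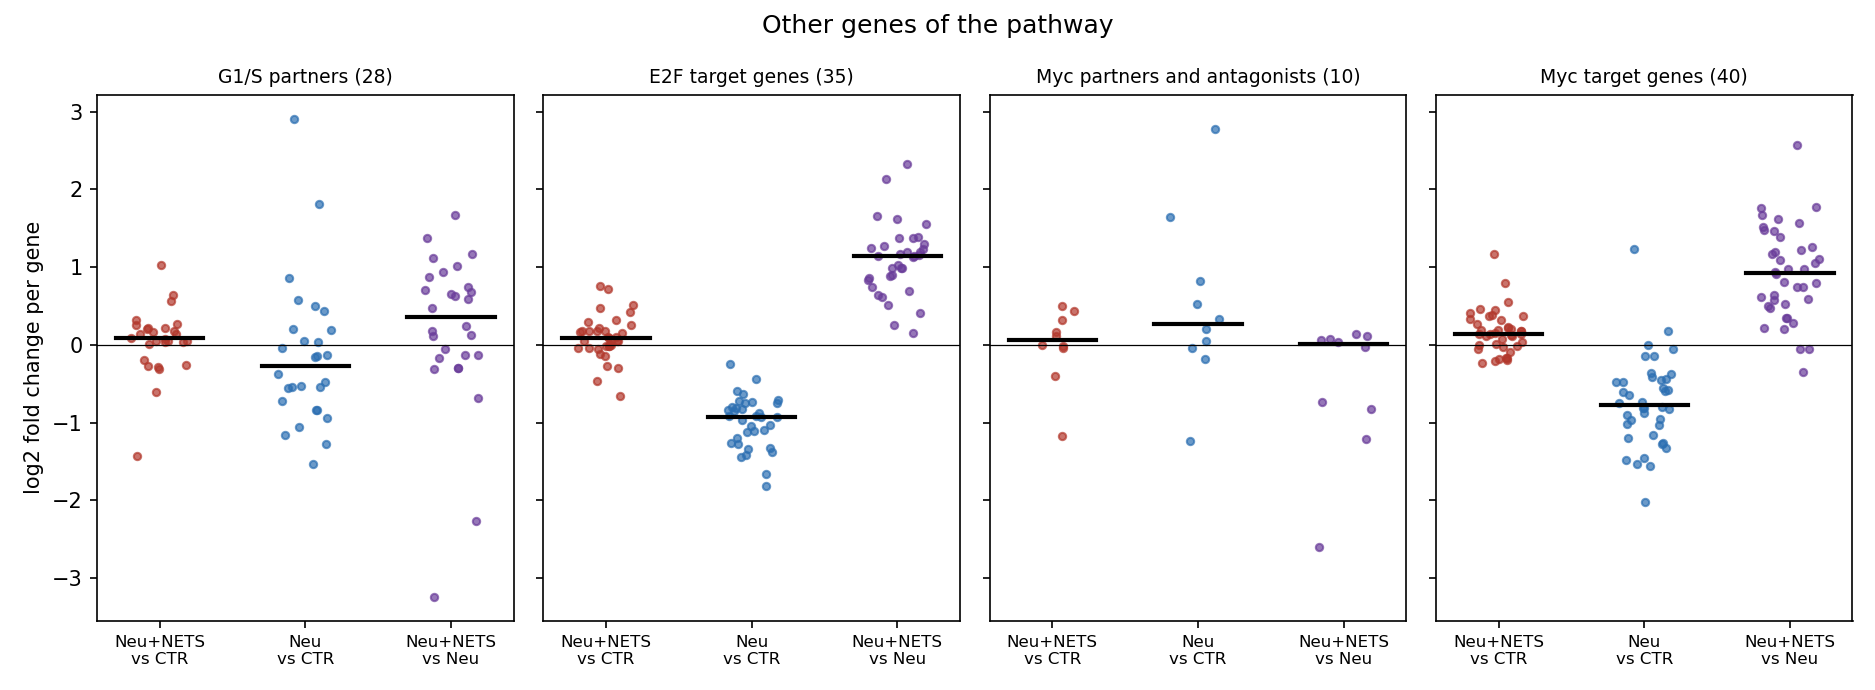
Log2 fold changes (y axis) of the tested genes in the lists of G1/S partners (28), E2F targets (35), Myc partners and antagonists (10) and Myc targets (40), in Neu+NETS against CTR, Neu against CTR and Neu+NETS against Neu; each point is 1 gene and each line is the list's median. All E2F targets lie below 0 in Neu against CTR (median -0.93) and above 0 in Neu+NETS against Neu (median 1.15).

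Among Myc's partners and antagonists, 10 of 12 genes were tested, and Mycn and Mycl were in the table but under the filter on low counts. Max, the partner that Myc needs to bind DNA, was lower in Neu than in CTR at -0.18 ± 0.026 (SE, edgeR adjusted p = 1.14e-05), and 6 of the 10 were higher there. Those 6 included Mxd1, Mxi1 and Mxd4, which compete with Myc for Max and repress transcription. Mxd1 averaged 1.23 ± 0.0433 FPKM in Neu+NETS, 7.0 ± 0.0918 in Neu and 1.06 ± 0.222 in CTR libraries (SD, n = 4 each), and was 6.84 times higher in Neu than in CTR, at 2.77 ± 0.10 (edgeR adjusted p = 8.48e-13). Mxi1 was at 0.82 ± 0.026 and Mxd4 at 1.65 ± 0.11 in Neu against CTR (edgeR adjusted p = 1.15e-13 and 1.1e-09). Myc and these 3 antagonists were thus all called higher in Neu than in CTR libraries. In Neu+NETS against Neu, where 62.5% of all genes were called, 4 of the 10 were lower, namely Mxd1 at -2.61 ± 0.10, Mxd4 at -1.21, Mxi1 at -0.83 and Mnt at -0.74, and 1 was higher, Max at 0.14, which was named after its value was seen. Between Neu+NETS and CTR, Mlx, Mxd3 and Mxd4 were higher at 0.32, 0.50 and 0.43, Mnt was lower at -0.41 and 6 were not called, where 45.3% of all genes were called. These counts of 5 and 4 calls among 10 genes are near or under the shares of all genes. The list's median was 0.06 in Neu+NETS against CTR (0.03 without the second CTR library, and 0.03 to 0.17 over the settings tried) and 0.27 in Neu against CTR (0.07 to 0.45). In Neu+NETS against Neu it was 0.0056 and took either sign, from -0.26 to 0.07.

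The list of Myc target genes held 40 genes, many of them of ribosome building, with others of nucleotide metabolism, translation and further processes. RNA of the Myc gene was at no more than 0.813 FPKM in any library. Reads from v-myc, which BV2 cells carry, were not analysed, so this RNA does not give the total Myc of the cells. Its relation to the 40 genes was not tested. In Neu libraries, where Myc RNA was highest, 36 of the 40 were lower than in CTR, 2 were higher (Eif4ebp1 at 1.23 and Ldha at 0.17) and 2 were not called (Npm1 at -0.06 and Odc1 at -0.0031), with a median log2 change of -0.77. In Neu+NETS libraries, where Myc RNA was lowest, 25 were higher than in CTR, 6 lower and 9 not called, with a median of 0.14. Against Neu, Neu+NETS libraries had 37 higher, 1 lower (Ldha at -0.34) and 2 not called (Eif4ebp1 at -0.06 and Cdk4 at -0.05), with a median of 0.92. Ldha, Npm1, and these mentions of Eif4ebp1, Odc1 and Cdk4 fall outside the rule for named genes and were chosen after their values were seen. This list, too, was compiled with earlier results known.

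Tfrc, the transferrin receptor, averaged 87.0 FPKM in Neu+NETS, 13.6 in Neu and 57.4 in CTR libraries. It was 4.05 times lower in Neu than in CTR, a log2 change of -2.02 ± 0.034 (SE, edgeR adjusted p = 5.52e-17), and 5.94 times higher in Neu+NETS than in Neu, at 2.57 ± 0.035 (edgeR adjusted p = 1.99e-18). The ribosome biogenesis genes Nolc1, Bop1 and Ddx21 were lower in Neu than in CTR by log2 changes of -1.56, -1.45 and -1.20, and higher in Neu+NETS than in Neu at 1.76, 1.77 and 1.57. In Neu+NETS against CTR Odc1, ornithine decarboxylase, was higher at 0.80 ± 0.024, Tfrc at 0.55, the nucleolin gene Ncl at 0.38, and Eif4ebp1, which encodes an inhibitor of cap-dependent translation, at 1.17 ± 0.067 (edgeR adjusted p = 8.95e-14 for Odc1 and 3.19e-10 for Eif4ebp1).

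For 3 members, the genes whose log2 CPM followed them most closely over the 12 libraries were sought among about 7070 genes with a mean of at least 5 FPKM. The libraries fall into 3 groups and each library's depth and scaling enter all its genes, so these correlations largely restate the order of the group means. For Ccnd1 they were Srxn1 (Pearson's r 0.998), Psmd4 (0.995) and Atf4 (0.995), and Atf4 averaged 131, 51.5 and 79.7 FPKM in Neu+NETS, Neu and CTR libraries. For E2f1 they were Baz1a (0.996), Foxk2 (0.995) and Eif6 (0.995), and Baz1a averaged 38.6, 19.7 and 30.2 FPKM. For Myc they were Lamp2, Stap1 and Renbp (0.978 each), and Stap1 averaged 5.06, 17.3 and 9.69 FPKM.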

How the data were processed

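Polyadenylated RNA of 12 libraries was selected with oligo-dT, per the labels' protocols, and 1 table of all 27487 genes was used, with columns tied to libraries by their names and 0 columns left over. Build GRCm39, edgeR, StringTie 1.3.4d and HISAT2 2.0.4 are named in the submitters' processing notes, without their roles. The sources used here do not give the annotation release, strand setting or filters, so reads of overlapping or antisense genes cannot be told apart. Per the file headers, the authors deposited estimated counts per gene, which are whole numbers and were used as deposited. Among values from 2 to 41, 33.0% are multiples of 4, where an even spread gives 25%, so a fragment appears to stand for about 4 units and the totals overstate fragments. Levels in the text are FPKM from the deposited table, as the authors scaled them.

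Groups and replicate numbers came from the labels. Genes were filtered with filterByExpr (16387 kept), scaled by TMM (factors 0.97 to 1.03) and fitted with glmQLFit and glmQLFTest (edgeR 4.0.16, R 4.3.3) in 1 model of 12 libraries, with a common biological coefficient of variation of 12.5%. Tests were two-sided, and SE is the log2 change over the square root of F. Floors and intervals cover counting error or library spread only. No 2 libraries of a group agreed within sampling noise (chi-square per degree of freedom 1.96 to 4.79 over 18 pairs, on counts divided by 4). Both ends of that range came from the Neu group. Its pairs 1-2, 1-3 and 2-3 lay lowest, at 2.20, 1.96 and 2.13. Its pairs 1-4, 2-4 and 3-4 lay highest, at 4.55, 4.79 and 4.44, so Neu replicate 4 departed most from its group. Alternatives were other scalings and filters, counts divided by 4, DESeq2 1.42.0, limma 3.58.1 on log2(FPKM + 1) or log2(FPKM + 0.1), fits of only 2 groups, a replicate block and leaving out each library. The script was tested on simulated data.

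The text names all 10 members, up to 4 called genes of each list and comparison with the smallest adjusted p, and for Myc, Ccnd1 and E2f1 the 3 genes of highest correlation; exceptions are stated, and 1 gene of the rule is not reported here. The members and lists were chosen with earlier results of these data known.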

Additional observations from a re-analysis of the deposited data

Results flagged for a closer look

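In each group of 4 libraries the highest or lowest value was compared with the others by Dixon's ratio, for the 10 members, their sums and ratios and the genes named from the lists. Of 141 groups, 6 held a library that stood apart, and chance flags about 1 in 20, or 7 of them. The sums and ratios reuse the members and all genes share the same libraries. The 141 groups are thus not independent, and the number set by chance is only a rough guide. The fourth Neu library, flagged below for a sum and a gene, also differed most from its group over all genes (chi-square per degree of freedom 4.44 to 4.79).

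For the members, the fourth CTR library had the lowest Ccnd1 share of D-type cyclin FPKM, 55.37%, where the other 3 lay at 56.66% to 56.69%. The fourth Neu library had the highest sum of E2f1 and E2f2, 31.43 FPKM, where the others lay at 27.31 to 27.99 FPKM.

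For the listed genes, the fourth Neu library was also highest for Bop1, at 25.13 FPKM against 22.27 to 22.74. Mlx was low in the third CTR library, at 20.82 FPKM against 23.58 to 23.81. In Neu+NETS libraries, Cdkn2b was high in the third, at 4.998 FPKM against 4.575 to 4.633, and Ncl in the fourth, at 302.3 FPKM against 294.1 to 294.7.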

How the results depend on the processing

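Each result was recomputed under 23 other settings, 12 of which left out 1 library. Of 684 values for members, 677 kept their direction and their side of the threshold, as did all 1081 for the other named genes. Ccnd2 in Neu against CTR became called under limma with each pseudocount and without a filter (-0.11, adjusted p 0.00212, 0.00209 and 0.000805). Rb1 in Neu+NETS against CTR lost its call under limma without a filter, and Cdkn1b in the same comparison lost its call without the first Neu+NETS library. Ccnd3 in Neu+NETS against CTR, which was never called, changed sign without Neu+NETS replicate 2 (-0.0065) and without CTR replicate 3 (-0.0101), in a range up to 0.0338 over single libraries left out. Limma with either pseudocount called 8 of Myc's partners and antagonists in Neu+NETS against Neu, where edgeR called 5. Limma with a minimum mean of 0.5 FPKM left Myc untested. The cause of these differences was not tested.

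Same-numbered libraries did not deviate together: 12 correlations of their deviations from the group means lay between -0.0546 and 0.0426, none over 0.1, and no library correlated best with its own number. A replicate block in the fit gave 7310, 8824 and 10208 called genes in Neu+NETS against CTR, Neu against CTR and Neu+NETS against Neu, where the fit without the block gave 7420, 8862 and 10241, and no call on a member changed. Depth limits Myc most, since Neu+NETS libraries held 8 to 29 units for it.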
